A study of Mus musculus with 10 samples.

Results

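RNA polymerase II occupancy was compared between mouse Th1 cells restimulated for 30 min and Th1 cells that were not restimulated (NR). The comparison rests on 4 of the 10 libraries of the series, 2 per group, chosen by their titles, and covers 10149 genes with a promoter peak in at least 1 of them. All 4 were ChIP-seq libraries from primary Th1 cells of Balb/c DO11.10 mice, a strain that carries a transgenic T cell receptor against ovalbumin, made with the polymerase antibody 8WG16 (ab817). The cells of both groups had been primed with anti-CD3 at 0.1 µg/ml, anti-CD28 at 1 µg/ml, IL-12 at 10 ng/ml and an antibody against IL-4. They were then expanded with an IL-2 analogue and kept without it for the last day. The 30 min cells were then given anti-CD3 bound to the plate at 5 µg/ml and anti-CD28 in solution at 2.5 µg/ml, and the NR cells were not. Neither group was left naive, and the labels do not say whether replicates 1 and 2 came from separate animals or cultures, so a p-value here speaks only of how far these libraries spread, and that spread may be technical. In such bulk samples fewer cells with polymerase at a gene and less polymerase per cell cannot be told apart. The question was where polymerase occupancy at promoters and elsewhere differed within the first 30 min of a recall stimulus.

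RNA polymerase II transcribes protein-coding genes in steps. It is recruited to the promoter, often pauses a short way downstream, and is then released into the gene and past its end. At a quiet gene a ChIP-seq signal usually sits in a narrow peak at the start site, whereas at a gene in full transcription it can spread over the whole body. In T cells, signals from the T cell receptor and CD28 act through calcium and NFAT, through MAP kinases and serum response factor, and through NF-kB, and they switch on immediate early genes without new protein synthesis. The antibody 8WG16 binds the repeats at the tail of the largest polymerase subunit, with a preference for repeats that carry little phosphate.

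The NR lists held 19888 and 17627 peak summits for replicates 1 and 2, and the 30 min lists 15330 and 23299, of which 9360, 10383, 9074 and 10680 were promoter peaks, within 1000 bp of a start site. Read numbers are not given, so no counting interval was possible. The background pileup put the depths at 1, 8.94, 2.39 and 7.07 relative to NR replicate 1. The median promoter peak was 725 bp wide in NR replicate 1, 920 bp in NR replicate 2, 692 bp in 30 min replicate 1 and 1184.5 bp in 30 min replicate 2, so replicate 2 had the longer peaks in each group, and 30 min replicate 2 stood apart with 18.2 Mb of called promoter DNA against 8.73 to 11.8 Mb in the other 3 libraries. The labelled cell type was checked against its markers. All 7 T cell markers had a peak in every library, and the Th1 markers, Tbx21 and Ifng among them, had one for 5 to 6 of 6. Of 5 markers of other T helper types, Gata3 or Il4 had a peak, 1 or 2 markers a library with 410 to 7691 bp in all. Klf1, an erythroid gene, had 869 bp in NR replicate 2 only. Of the 5 markers each for B cells, myeloid cells (such as Lyz2) and stromal or epithelial cells (such as Epcam), none had a promoter peak in the 4 libraries. In the wider lists of these cell types only Ebf1 (482 bp in 30 min replicate 2) and Pecam1 (1211 to 2736 bp in all 4) had one, and of the CD8 and NK cell genes Klrk1 had one in all 4 libraries, Klrd1 in 3 and Cd8b1 in 2.

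The promoters below belong to genes described further on. Egr2 and Nr4a3 stand for the immediate early genes, Nfkbia, Nfkb2 and Tnfaip3 for NF-kB and its inhibitors, and Gar1 for ribosome biogenesis. All were chosen after their values were seen. Plk2 and Larp7 were picked because their rank rose and their promoter holds a cAMP response element. They therefore do not show that genes with this element moved as a group. Each runs 5′ to 3′ on the gene's own strand from 250 bases before to 50 bases after the start in RefSeq (build GRCm38.p6). Capitals mark matches, on either strand, to the cAMP response element TGACGTCA, the AP-1 site TGACTCA, the EGR sites GCGGGGGCG and GCGTGGGCG, the E-box CACGTG, the TATA box TATAAA, the serum response factor site known as the CArG box, and the NF-kB site. Matches on the 2 strands or of 2 motifs can overlap, and an overlap was marked once.
Egr2 (chr10:67537619-67537918, plus strand): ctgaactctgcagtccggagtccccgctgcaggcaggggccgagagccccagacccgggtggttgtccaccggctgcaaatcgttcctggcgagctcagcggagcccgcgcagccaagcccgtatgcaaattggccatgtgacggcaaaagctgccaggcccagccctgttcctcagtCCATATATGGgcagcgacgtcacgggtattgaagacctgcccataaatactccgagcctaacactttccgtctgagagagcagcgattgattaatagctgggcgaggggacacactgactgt
Nr4a3 (chr4:48045055-48045354, plus strand): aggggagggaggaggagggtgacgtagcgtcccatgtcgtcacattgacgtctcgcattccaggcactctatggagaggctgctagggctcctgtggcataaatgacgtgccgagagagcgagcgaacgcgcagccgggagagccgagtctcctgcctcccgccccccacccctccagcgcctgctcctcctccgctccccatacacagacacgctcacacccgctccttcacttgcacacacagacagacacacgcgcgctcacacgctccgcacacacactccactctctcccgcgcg
Nfkbia (chr12:55492598-55492897, minus strand): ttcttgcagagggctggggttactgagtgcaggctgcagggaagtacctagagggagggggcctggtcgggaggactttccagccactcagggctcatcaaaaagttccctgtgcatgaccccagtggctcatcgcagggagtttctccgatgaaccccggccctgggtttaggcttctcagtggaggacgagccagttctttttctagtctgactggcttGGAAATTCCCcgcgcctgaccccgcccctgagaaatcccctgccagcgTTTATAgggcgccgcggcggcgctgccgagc
Nfkb2 (chr19:46304487-46304786, plus strand): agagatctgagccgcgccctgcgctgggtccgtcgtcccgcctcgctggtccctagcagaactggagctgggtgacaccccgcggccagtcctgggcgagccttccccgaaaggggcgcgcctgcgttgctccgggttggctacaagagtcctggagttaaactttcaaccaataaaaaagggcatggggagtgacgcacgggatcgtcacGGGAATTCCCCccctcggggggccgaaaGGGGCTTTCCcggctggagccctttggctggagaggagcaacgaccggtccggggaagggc
Tnfaip3 (chr10:19015361-19015660, minus strand): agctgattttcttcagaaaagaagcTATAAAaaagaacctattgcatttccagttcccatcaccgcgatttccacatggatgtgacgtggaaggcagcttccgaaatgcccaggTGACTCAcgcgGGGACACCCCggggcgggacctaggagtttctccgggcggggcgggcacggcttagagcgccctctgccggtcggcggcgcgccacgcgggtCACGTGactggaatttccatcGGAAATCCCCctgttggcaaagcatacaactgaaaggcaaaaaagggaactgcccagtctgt
Plk2 (chr13:110394794-110395093, plus strand): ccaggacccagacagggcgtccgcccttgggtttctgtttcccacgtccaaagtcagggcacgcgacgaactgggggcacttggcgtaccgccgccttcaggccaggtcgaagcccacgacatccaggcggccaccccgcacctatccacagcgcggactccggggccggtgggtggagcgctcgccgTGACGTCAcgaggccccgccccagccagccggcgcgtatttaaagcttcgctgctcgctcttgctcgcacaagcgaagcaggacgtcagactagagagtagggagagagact
Larp7 (chr3:127553300-127553599, minus strand): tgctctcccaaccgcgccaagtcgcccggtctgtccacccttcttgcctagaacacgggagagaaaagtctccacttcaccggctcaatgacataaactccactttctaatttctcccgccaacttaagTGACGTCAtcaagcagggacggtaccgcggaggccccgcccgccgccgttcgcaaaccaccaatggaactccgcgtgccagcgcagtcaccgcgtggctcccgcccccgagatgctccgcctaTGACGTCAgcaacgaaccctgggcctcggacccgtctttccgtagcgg
Gar1 (chr3:129831347-129831646, minus strand): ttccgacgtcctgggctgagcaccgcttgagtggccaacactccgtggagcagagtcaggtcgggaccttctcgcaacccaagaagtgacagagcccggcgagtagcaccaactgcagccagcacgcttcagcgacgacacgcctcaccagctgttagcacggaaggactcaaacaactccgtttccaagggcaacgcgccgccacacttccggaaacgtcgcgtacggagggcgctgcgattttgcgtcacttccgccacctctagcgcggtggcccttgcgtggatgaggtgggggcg

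In Egr2 the CArG box lies 72 to 63 bases before the start. Such a box was found in 1.63% of the 32851 promoters in the table. The NF-kB site of Nfkbia lies 29 to 20 bases before the start, Nfkb2 has such sites 39 to 29 and 11 to 2 bases before it, and Tnfaip3 has them 125 to 116 and 12 to 3 bases before it. An NF-kB site was found in 4.51% of all promoters. The cAMP response element, which CREB family factors bind, lies 62 to 55 bases before the start of Plk2 and was found in 1.79% of all promoters. Larp7 holds 2 matches to it, the first 121 to 114 bases before the start. The other shares were 5.20% for the AP-1 site, 2.91% and 0.612% for the EGR sites, 7.15% for the E-box and 13.6% for the TATA box. Nr4a3 and Gar1 have none of these letters in the window. A match is a description of the letters, not of a bound factor. Shares of promoters with a motif were not compared between sets of genes, because a promoter sequence was matched for only 75.7% of the genes whose rank rose and 72.0% of those whose rank fell, and a check on fewer than 80% is void.

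The first measure was the rank of a promoter within its own library. The fold enrichment of a peak is its height over local background as the authors' peak caller gave it, and it was turned into a percentile over the 7442 genes with a promoter peak in all 4 libraries. A gene was counted as up where both 30 min percentiles lay at least 10 points above both NR percentiles, and as down in the mirrored case. By this rule 494 genes (6.64%) were up and 457 (6.14%) were down. Percentiles over the same genes have the same mean in every library, so a rise or fall shared by all genes cannot show in these 2 counts. Rank changes are given as a description with no test, and a permutation of 2 libraries against 2 could not give a p under 0.333. Just inside the limit lay Dennd4a and Emc4, with gaps of 10.01 and 10.02 points, and just outside it Rprd1b and Fancc, with 9.984 and 9.977. On the falling side Gamt and Luc7l2 lay just inside, with 10.03 and 10.06 points, and Atg4d and Rp9 just outside, with 9.984 and 9.970.

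The orphan nuclear receptor gene Nr4a3, an immediate early gene of T cell receptor signalling, had the largest gap. Its promoter stood at percentiles 0.443 and 1.03 in the NR libraries, near the bottom of all ranked promoters, and at 85.0 and 81.4 after 30 min. Relb, which encodes the NF-kB subunit of the noncanonical pathway, stood at 11.4 and 8.96 and then at 78.1 and 84.4. Both genes thus stood low in both NR libraries and high in both 30 min libraries, and the rule itself allows no overlap. Crem, a cAMP-responsive transcription factor gene, went from 36.5 and 35.9 to 92.6 and 93.1. Cd40lg, the ligand with which helper T cells engage CD40 on B cells, went from 6.83 and 5.25 to 75.4 and 56.3. Egr1, a zinc finger factor of the immediate early class, went from 14.6 and 7.77 to 96.9 and 59.2. In Cd40lg and Egr1 the 30 min replicates lay farther apart than in Crem, and the rule requires that both lie above both NR libraries. The other genes with the widest gaps were Cd68, Gar1, Tagap, Sp2 and Phlda1, with gaps of 44.9 to 58.5 points. Cd68 encodes a lysosomal protein best known from macrophages, and no myeloid marker of the list had a promoter peak in any library. Tagap encodes a GTPase-activating protein of activated T cells, and Phlda1 is an early response gene. Sp2 was the least even, at 40.6 and 6.66 in NR cells and 88.4 and 86.7 at 30 min. With the pileup at the summit in place of the fold enrichment, its groups overlapped by 10.7 points and the gap of Crem fell to 9.47.

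Among the genes with the widest falls, Kcnn4, the calcium-activated potassium channel of T cells, stood at percentiles 57.5 and 50.9 in NR cells and at 9.14 and 8.89 after 30 min. Adrbk1, which encodes the receptor kinase GRK2, went from 91.5 and 92.8 to 41.0 and 50.97. Tfeb, a transcription factor gene of lysosome formation, went from 57.9 and 58.3 to 19.8 and 16.6. In all 3 genes the NR replicates were close together and lay far above both 30 min libraries. Samd10, Slc17a9 (a vesicular nucleotide transporter), Mrpl28 (a mitochondrial ribosomal protein), Ap5b1 (an adaptor protein subunit) and Tmem189 had gaps of 37.6 to 45.5 points. Shisa5 had the widest fall of all, 72.5 points, but by position (the best promoter peak over the gene and 1 kb either side, whichever gene it was assigned to) its mean percentile differed by only -7.75 points. By position 431 of the 479 rising genes with a value kept a gap of at least 10 points, as did 415 of 439 falling genes. The median RefSeq length was 20452 bp for rising genes (479 of 494 with a length), 20904 bp for falling genes and 22760 bp for all ranked genes.

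**Figure D1:**
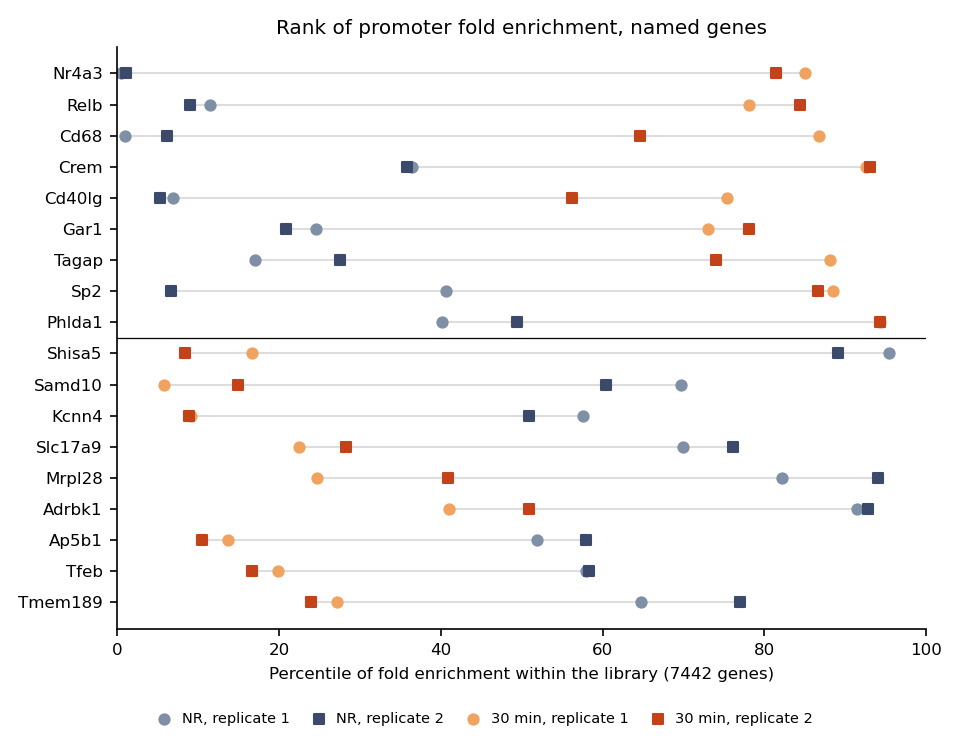
Percentile of the promoter fold enrichment within each library, over 7442 genes with a promoter peak in all 4 libraries, for the 9 genes with the widest gap up (above the line) and the 9 with the widest gap down (below it). Each point is 1 library: grey and dark blue for NR, orange and red for 30 min, circles for replicate 1 and squares for replicate 2. Nr4a3 stands at 0.443 and 1.03 in NR cells and at 85.0 and 81.4 after 30 min, and Kcnn4 at 57.5 and 50.9 and then at 9.14 and 8.89.

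Of the 20 ranked members of the NF-kB list 8 were up and 0 were down, against 6.64% and 6.14% of all ranked genes, and the median member lay 12.4 points higher at 30 min, against -0.17 points for all ranked genes. The rising members were the subunits Relb and Nfkb2, the inhibitor Nfkbib, the deubiquitinases Cyld and Tnfaip3 that restrain the pathway, the survival genes Bcl2a1b and Bcl2a1d, and Birc3, a ubiquitin ligase of the pathway. Nfkb2 stood at percentiles 56.5 and 64.3 in NR cells and at 95.7 and 85.9 after 30 min. Tnfaip3 stood at 85.8 and 74.8 and then at 97.1 and 98.7. Both were already above the median promoter before the stimulus and lay higher in both 30 min libraries. Nfkbib, in contrast, was at 0.242 and 6.08 in NR cells and at 48.1 and 38.8 after 30 min. The subunit genes Rel and Rela stood high in all 4 libraries with overlapping groups, Rel at 85.9 and 95.7 against 88.9 and 97.6 and Rela at 83.0 and 96.9 against 95.6 and 97.8. Bcl2a1b and Bcl2a1d are near-identical copies, so reads may have been split between them.

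The lists of this paragraph, ribosomal proteins aside, were added after results were seen. The first was ribosome biogenesis. Of its 78 ranked members 18 were up and 0 were down, against 6.64% and 6.14% of all ranked genes. Of these members 60 had a higher mean percentile at 30 min, and the median rose from 27.9 to 45.3 with a median difference of 12.2 points. By position 17 of 82 were up and 0 down. The list stood low in NR cells, and so did rising genes as a whole, with a median NR percentile of 29.7 against 60.4 for falling genes. A low start leaves more room to rise than to fall. Whether the lists of this paragraph differ from genes of a like starting level was not tested. Gar1, a protein of the particles that guide pseudouridylation of ribosomal RNA, stood at 24.6 and 20.8 in NR cells and at 73.1 and 78.1 after 30 min. Rbm19, which acts in processing of the ribosomal RNA precursor, stood at 14.1 and 29.3 and then at 71.2 and 73.2. Heatr1, Wdr36, Tsr1, Nob1, Gnl3 and Rrs1 were among the others. Of 18 ranked genes for import into mitochondria 4 were up and 0 down (Timm9, Tomm40, Tomm5 and Tomm70a), but by position 4 were up and 2 down of 21. Translation factors gave 7 up and 2 down of 51, chaperones 8 up and 3 down of 56, and mitochondrial ribosomal proteins 7 up and 2 down of 53 (by position 4 up and 2 down of 55). The proteasome gave 3 up of 44, the respiratory chain 5 up and 2 down of 67, and ribosomal proteins 4 up and 1 down of 55, all near the share of all ranked genes.

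The immediate early genes gave both rising members and members that missed the rule. Their counts stand against 6.64% of all ranked genes up and 6.14% down. The ranked orphan nuclear receptor genes Nr4a3 and Nr4a2 were both up, with Nr4a2 at 24.6 and 4.02 in NR cells and 57.8 and 50.6 at 30 min. Of 9 ranked AP-1 genes 2 were up, Atf3 from 6.83 and 0.806 to 28.2 and 27.6, and Fosl2 from 75.1 and 70.3 to 96.7 and 88.2. Fos stood at 92.8 and 95.7 in NR cells and at 98.9 and 99.6 after 30 min, and Jun at 97.7 and 95.9 and then at 97.8 and 94.7. Genes so near the top of a library have no room for a gap of 10 points, and Fos missed the rule although its groups did not overlap. Junb, at 98.2 and 74.8 against 96.8 and 52.5, Myc, at 97.3 and 77.4 against 98.6 and 89.8, and Irf4, at 87.2 and 54.6 against 93.6 and 75.2, had overlapping groups. Of 22 other early response genes 3 were up, Phlda1 and the polo-like kinase genes Plk2 and Plk3. The median NR percentile of this list was 90.9, so many members lay too near the top to be counted as up. Plk2 stood at 19.7 and 17.3 and then at 61.8 and 48.3. Larp7, a subunit of the 7SK particle that holds the elongation factor P-TEFb inactive, stood at 33.6 and 50.5 and then at 84.0 and 90.3.

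Effector and regulator genes were counted by list, against 6.64% of all ranked genes up and 6.14% down. Of 7 ranked cytokine genes 2 were up, Il21 from 46.2 and 1.67 to 96.8 and 90.5 and Il10 from 70.8 and 30.4 to 93.1 and 87.2. Ifng, the hallmark cytokine gene of Th1 cells, stood at 87.8 and 49.2 and then at 99.0 and 77.9, with overlapping groups. No promoter peak was assigned to Il2 or Tnf in the 4 libraries. Of 16 ranked receptor genes 3 were up, the inhibitory receptors Lag3, Pdcd1 and Cd5, and by position 2 of 17 were. Pdcd1, which encodes PD-1, went from 2.00 and 23.9 to 49.5 and 42.9. Among activation transcription factors Crem, Mxd1 and Nfatc1 were up, 3 of 18. Of 25 brakes on signalling 2 were up (8%, near the share of all ranked genes), Spry1 and Rgs2, which restrain Ras and G protein signals. Cd69 (95.6 and 90.7 against 98.1 and 98.9) missed the rule. Quiescence and naive state genes gave 0 up and 1 down of 17, Tsc1, and a median difference of -6.11 points, with 2 of 17 members higher, although the median of the levels was 79.4 in NR cells and 81.2 at 30 min. The cell cycle (0 up, 1 down of 24), interferon response (0 and 0 of 19), T cell receptor signalling (0 up, 1 down of 17, Cd3g) and Th1 lists (0 up, 1 down of 12, Hlx) gave no rising member. Their median NR percentiles were 47.8, 77.6, 80.5 and 68.9, in that order. Of 35 ranked histone genes 1 was down and 1 had a higher mean percentile, with a median difference of -5.60 points, but these genes lie in clusters of close copies. The reference genes Actb (99.2 and 94.0 against 98.9 and 89.4) and Gapdh (98.8 and 97.5 against 99.2 and 95.0) and the T cell genes Cd4 (54.7 and 54.7 against 33.3 and 46.0), Cd3e (83.4 and 71.4 against 82.7 and 62.9) and Tbx21 (94.3 and 75.4 against 98.1 and 90.1) missed the rule.

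**Figure D2:**
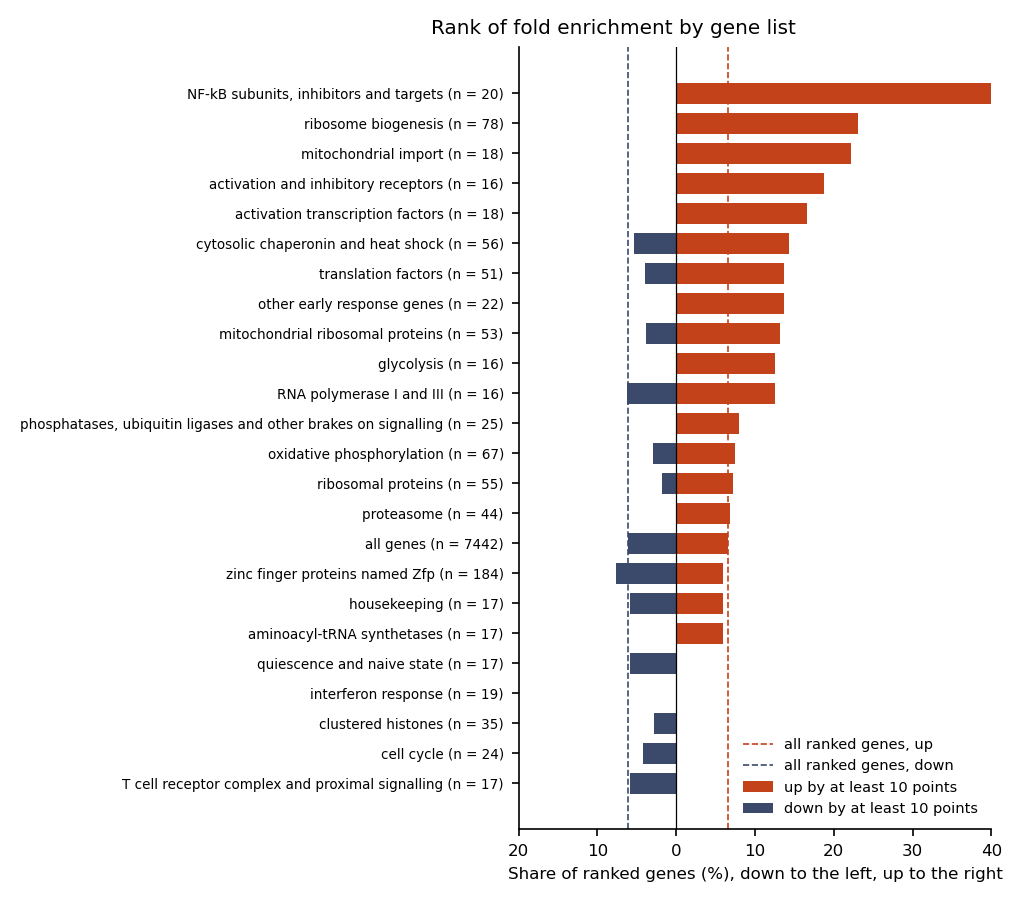
Share of the ranked genes of each list with 15 or more ranked genes whose percentile rose (red, to the right) or fell (blue, to the left) by at least 10 points in both 30 min libraries against both NR libraries. Dashed lines mark all 7442 ranked genes, 6.64% up and 6.14% down. The NF-kB list has 8 of 20 genes up and ribosome biogenesis 18 of 78, and neither has a gene down. Ribosome biogenesis stood low in NR cells, at a median percentile of 27.9, which leaves more room to rise than to fall. The figure includes the 10 lists added after results were seen, ribosome biogenesis among them.

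The rank counts depend on the rule. With percentiles in each library's own full list 416 genes were up and 327 down, of which 326 and 276 were the same genes. With the pileup at the summit 512 were up and 475 down, of which 319 and 294 were the same genes. Percentiles correlated (Pearson) at 0.778 between the NR libraries and at 0.826 between the 30 min libraries. Between the groups they correlated at 0.723 to 0.848, and NR replicate 2 with 30 min replicate 2 had the highest value of all pairs. Libraries thus differed within a group about as much as between groups. A library left out leaves fewer pairs that must pass. Leaving out NR replicate 1 gave 1071 genes up and 1072 down, and leaving out NR replicate 2 gave 1324 and 1240. Leaving out 30 min replicate 1 gave 928 and 936, and leaving out 30 min replicate 2 gave 1169 and 1217. Comparing only libraries of the same replicate number, the block, gave 798 and 803.

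The second measure was the length of DNA called as promoter peak and assigned to a gene. It was compared as log2(bp + 100) with limma over 9908 genes, relative to the median gene, whose own log2 difference between 30 min and NR was 0.16. Called length was greater at 30 min for 23 genes (0.232%) and smaller for 1 (0.0101%) at an adjusted p under 0.05. Without the test, both 30 min values lay above both NR values for 1139 genes (11.5%) and below them for 115 (1.16%). Of the 23 longer genes 10 had no peak in either NR library and 8 of the 13 ranked ones were also up in rank. The median RefSeq length of the 23 genes was 3347 bp, against 21946 bp for the genes tested. Where a group has no peak, its values are the pseudocount and add no measured spread, so the SE and p of such a gene may be too small, and no fold is given.

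Egr3 and Egr2 had the largest log2 differences of the 23 genes. Egr2 (chromosome 10, 67537869 to 67542188 on mm10) had no assigned peak in NR cells and 7853 and 12325 bp after 30 min (limma adjusted p = 0.000627). Egr3 (chromosome 14, 70077445 to 70082613) had none in NR cells and 14771 and 17173 bp after 30 min (limma adjusted p = 0.00102). Both encode zinc finger factors of T cell activation and tolerance, and both replicates gained several kilobases. Nr4a3 (chromosome 4, 48045305 to 48050161) had 479 and 628 bp in NR cells and 14671 and 27123 bp after 30 min, a log2 difference of 4.79 ± 0.18 (SE, limma adjusted p = 0.00133). This call was lost with a stricter peak threshold (limma adjusted p = 0.112) and with lists of equal length (limma adjusted p = 0.0745). Egr1 (chromosome 18, 34861207 to 34864956) had 529 and 976 bp and then 7114 and 13069 bp, a difference of 3.41 ± 0.19 (limma adjusted p = 0.00735). In both genes the shorter 30 min value lay far above the longer NR value. Of the remaining members of these lists, Nr4a1 had 0 and 483 bp in NR cells and 11034 and 12478 bp after 30 min, and missed the test (limma adjusted p = 0.0766).

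Other genes past the threshold included 2 chemokines and a membrane ligand. The chemokine genes Ccl3 and Ccl4, neighbours on chromosome 11 that recruit other leukocytes, had no peak in NR cells. After 30 min Ccl4 had 4861 and 5276 bp (limma adjusted p = 0.00356) and Ccl3 had 1283 and 3769 bp (limma adjusted p = 0.0107). The Ccl3 call was lost with quantile normalisation, with only the 4 NR and 30 min libraries and with a pseudocount of 1000 bp (limma adjusted p = 0.106, 0.0994 and 0.0587). The CD40 ligand gene Cd40lg (chromosome X, 57212143 to 57224042) had 681 and 581 bp in NR cells and 8323 and 17964 bp after 30 min, a difference of 3.92 ± 0.25 (limma adjusted p = 0.00905). Lilrb4a, an inhibitory receptor of the leukocyte immunoglobulin-like family, had 562 and 616 bp and then 3326 and 7949 bp (limma adjusted p = 0.0129). Among genes past the threshold, the largest rises were named only where both 30 min values lay above both NR values. The lack of overlap in these genes was thus set by that choice. Lilrb4a has a close copy, Lilr4b, so reads may be shared between them. Smim3 (limma adjusted p = 0.025) and the pseudogene Slc2a4rg-ps (limma adjusted p = 0.0422) also passed.

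Nfkbia, which encodes the inhibitor that NF-kB induces against itself, had 1118 and 1559 bp in NR cells and 7257 and 8643 bp after 30 min, a difference of 2.34 ± 0.23 (limma adjusted p = 0.0422). Pdcd1 had 416 and 618 bp and then 2069 and 2767 bp (limma adjusted p = 0.0452). With the replicate number as a block the limma adjusted p was 0.0679 for Nfkbia, 0.0835 for Pdcd1, 0.0746 for Fes, 0.0591 for Smim3 and 0.0643 for Slc2a4rg-ps, past the threshold in no case. By position Nfkbia and Pdcd1 missed the test as well (limma adjusted p = 0.103 and 0.0674). Of the 23 longer genes 16 passed with the block.

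Some called lengths turned on which gene a peak was assigned to. Hcst had 1198 and 1311 bp in NR cells and 13429 and 15087 bp after 30 min, and the peak over the start of its neighbour Nfkbid, assigned to Nfkbid in both NR libraries, was assigned to Hcst in both 30 min libraries. Fes had 1417 and 2313 bp and then 20073 and 25751 bp, and the 30 min peak over the start of its neighbour Furin was assigned to Fes. By position neither passed (limma adjusted p = 0.212 for Hcst and 0.517 for Fes). Shisa5, the only gene with a shorter called length, had 6430 and 8258 bp and then 450 and 927 bp, and by position its log2 difference was 0.04 (limma adjusted p = 1). Rps27, a ribosomal protein gene, had 714 and 933 bp and then 4444 and 5861 bp, and did not pass by position (limma adjusted p = 0.211). Of the 23 longer genes, 7 were small nucleolar RNA or similarly named genes and 11 passed by position.

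**Figure D3:**
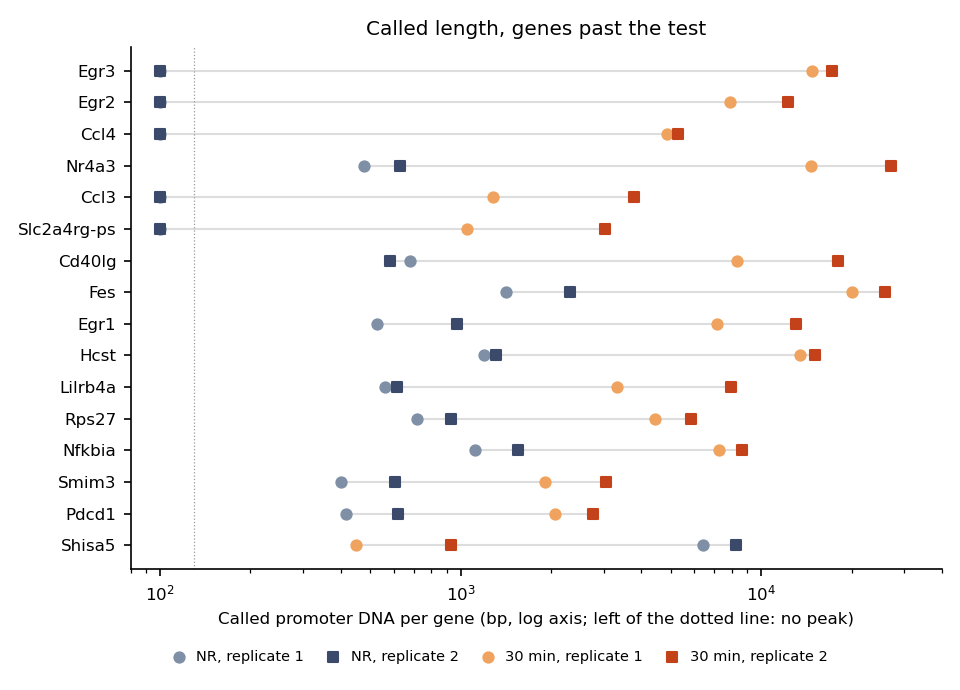
Called promoter DNA per gene in bp, on a log axis, in each library for the 15 named genes with the largest rise past the limma threshold and for Shisa5, the only gene past it with a fall. Points left of the dotted line have no assigned peak. Egr2 and Egr3 have no peak in NR cells and 7853 to 17173 bp after 30 min. The red and orange points lie right of the NR points in all genes but Shisa5. Genes were shown only where the groups did not overlap, so this was set by the choice.

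Most members of the lists missed the length test. Among always reported genes, Fosb had no peak in NR cells and 844 and 2030 bp after 30 min (limma adjusted p = 0.0534, and 0.0455 by position), Irf4 had 3513 and 2772 bp and then 11442 and 23114 bp (limma adjusted p = 0.15), and Cd69 had 1064 and 825 bp and then 3207 and 10880 bp (limma adjusted p = 0.142). These 3 had no overlap between the groups. Tbx21 had 2094 and 2374 bp and then 7036 and 8714 bp (limma adjusted p = 0.34), and Tnfaip3 588 and 1532 bp and then 1489 and 4758 bp, with overlap (limma adjusted p = 0.532). Fos, Junb, Myc, Jun, Ifng, Actb, Gapdh, Cd3e and Cd4 had log2 differences of -0.81 to 0.93 and missed the test. In the list of NF-kB genes 1 of 21 tested was longer (Nfkbia), with a median log2 difference of 0.55 against -0.04 for all genes. In the receptor list 1 of 21 was longer (Pdcd1), and in the Egr list 3 of 5, against 23 of all 9908 genes tested (0.232%). The calls of Nfkbia and Pdcd1 were lost by position and with the replicate block. The lists of AP-1 factors, other early response genes, activation transcription factors, cytokines and brakes had 0 called in either direction by limma, and at an unadjusted p under 0.05 they had 6 of 11, 10 of 23, 7 of 19, 3 of 10 and 5 of 28, against 793 of all 9908 genes tested (8.00%).

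Single libraries weighed on these counts. The fit also held the 2 h libraries, which share its estimate of spread. With NR replicate 1 left out 4 genes were longer and 0 shorter, and with NR replicate 2 left out 24 and 1. With 30 min replicate 1 left out they were 53 and 15, and with 30 min replicate 2 left out 52 and 175. Leaving out 2 h replicate 1 gave 5 and 2, and leaving out 2 h replicate 2 gave 9 and 2. A library left alone in its group was assumed to vary like the other groups. Egr2 and Egr3 passed in all 6 of these fits, Nr4a3, Ccl4 and Shisa5 in 5 (all but that without NR replicate 1), Egr1 and Cd40lg in 4, Ccl3 in 3, Hcst, Lilrb4a, Rps27 and Nfkbia in 2, and Smim3, Pdcd1, Fes and Slc2a4rg-ps in 1. All 24 genes kept their direction. Of 11 other settings, Egr1 and Cd40lg passed in all 11, Lilrb4a in 10 (not without centring), Nfkbia in 5, Pdcd1 and Fes in 4 and Slc2a4rg-ps in 2.

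The third measure was how far downstream of the start the called DNA reached, which in a short gene can be past its end. Downstream reach was taken from the annotated start to the far end, in the direction of transcription, of the promoter DNA assigned to the gene, in 7410 genes with a peak in all 6 polymerase libraries, those at 2 h included. It was farther at 30 min for 23 genes (0.31%) and nearer for 1 (0.0135%). Upstream reach, away from the gene, was farther for 6 (0.081%) and nearer for 2 (0.027%). Because an assigned peak can lie at another start of the gene, the reach was also taken from the peak over the start itself, whichever gene it was assigned to. By that measure 38 of 6813 genes reached farther downstream (0.558%) and 1 nearer (0.0147%), and upstream there were 0 in either direction by limma (375 of 6813 at an unadjusted p under 0.05).

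Nr4a3 again had the largest change. Its called DNA ended 52 and 11 bp after the start in NR cells and 11684 and 23441 bp after it at 30 min, a log2 difference of 6.75 ± 0.35 (SE, limma adjusted p = 0.00151). With a stricter peak threshold it had no value, for want of a peak in every library. In Egr1 it ended at 374 and 359 bp and then at 5298 and 6034 bp, a difference of 3.37 ± 0.34 (limma adjusted p = 0.0189). In Cd40lg it ended at 699 and 281 bp and then at 8004 and 16372 bp, a difference of 4.14 ± 0.49 (limma adjusted p = 0.0357). In NR cells the called DNA of Nr4a3, Egr1 and Cd40lg thus stopped within 1 kb of the start, and in both 30 min libraries it ran kilobases downstream. This was past the end of Egr1, of 3750 bp, and of the Nr4a3 transcript given above. Lilrb4a went from 372 and 381 bp to 3049 and 7425 bp, and Nfkbia from 562 and 1063 bp to 6631 and 7748 bp (limma adjusted p = 0.0189 and 0.0472). Along with Rps27, Ctla2a, Gadd45b and H2-Q6 these genes passed by the peak over the start as well, 9 of the 23 in all. Ctla2a encodes a protease inhibitor of activated T cells, Gadd45b a stress sensor that acts on p38 kinase in Th1 cells, and H2-Q6 a class I molecule with close copies. The reach calls of Cd40lg, Nfkbia, Rps27, Ctla2a, Gadd45b and H2-Q6 were lost with only the 4 NR and 30 min libraries. Those of Cd40lg, Nfkbia and Lilrb4a were lost without centring. With 1 library left out all 9 genes kept their direction, but apart from Nr4a3 their calls did not hold in every such fit. The log2 difference then ran from 3.45 to 4.82 for Cd40lg and from 3.07 to 3.68 for Egr1.

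For other genes the reach of the assigned peaks and that of the peak over the start differed. Hmox2 went from 346 and 459 bp to 30771 and 30913 bp, but by the peak over its start the log2 difference was -0.21. Fam110a went from 227 and 415 bp to 6876 and 7241 bp, with 0.26 by the peak over the start. Adap1, Cd82, Polr2m and Traf3 passed by the assigned peaks and could not be tested by the peak over the start. Adap1 and Polr2m had none in any of the 4 libraries, Traf3 had one in both 30 min libraries only, and Cd82 lacked one in NR replicate 1. Shisa5, the 1 gene with a nearer reach, went from 17357 and 18709 bp to 388 and 631 bp, with a difference of 0.34 by the peak over its start.

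More genes passed by the peak over the start than by the assigned peaks, and those below are named after their values were seen. Nfkbid, which encodes a nuclear member of the inhibitor family of NF-kB, reached 605 and 1806 bp in NR cells and 10394 and 11089 bp after 30 min (limma adjusted p = 0.0471). Irf4, a transcription factor gene whose dose follows receptor signal strength, reached 1829 and 1842 bp and then 9604 and 20850 bp (limma adjusted p = 0.0226). Cd69, the early activation antigen, reached 346 and 409 bp and then 2707 and 10085 bp (limma adjusted p = 0.0322). In all 3 both 30 min libraries lay above both NR libraries. Dusp2, a phosphatase of MAP kinases, reached 773 and 720 bp and then 4763 and 5631 bp (limma adjusted p = 0.0468). Zap70, the kinase next to the T cell receptor, Lag3, Pdcd1, Bcl2a1b, Trib1, Ppp1r15a and Rps12 also passed. Ppp1r9b was the 1 gene that reached nearer, from 1006 and 2237 bp to 7 and 185 bp. Reach by the peak over the start was fitted with all 6 libraries only, so how far these calls depend on single libraries was not tested. By the assigned peaks, farther and nearer genes numbered 11 and 2 when NR replicate 1 was left out, 40 and 5 when NR replicate 2 was, 64 and 2 when 30 min replicate 1 was, and 30 and 35 when 30 min replicate 2 was. When 2 h replicate 1 or 2 was left out, 12 and 11 genes reached farther. Upstream, farther genes numbered 3 to 55 and nearer genes 1 to 59 over these fits, with 55 farther when NR replicate 2 was left out and 59 nearer when 30 min replicate 2 was.

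The share of each gene that lay under called promoter DNA was described for 9338 genes, with limits set once other results were known. At least 90% of the gene was covered in both 30 min libraries and under 50% in both NR libraries for 17 genes (0.182%), and the reverse held for 0 (0%). They were short, with a median length of 3750 bp against 23239.5 bp for all genes described. The longest was Furin, a protease gene that T cell activation and IL-12 induce, at 43.6% and 39.5% in NR cells. Il21, which encodes a cytokine that acts on B cells, was covered for 17.3% and 10.8%, and Nfkbid for 18.6% and 25.8%, in NR cells. All 3 were covered from end to end in both 30 min libraries. The others included Egr1, Egr3, Nfkbia, Bhlhe40, a helix-loop-helix factor of cytokine control, the translation genes Eef1a1, Eif1 and Rps12, and Lilr4b. Genes over 90% covered numbered 41 and 48 in the NR libraries and 71 and 252 at 30 min, so 30 min replicate 2, with the most called DNA, also had the most such genes. Cd40lg, of 11900 bp, went from 4.4% and 2.4% to 67.3% and 100%, and Irf4 from 10.5% and 10.5% to 54.3% and 100%. Ifng was already covered for 100% and 61.5% in NR cells and Myc for 65.1% and 73.9%, and both were at 100% in both 30 min libraries.

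**Figure D4:**
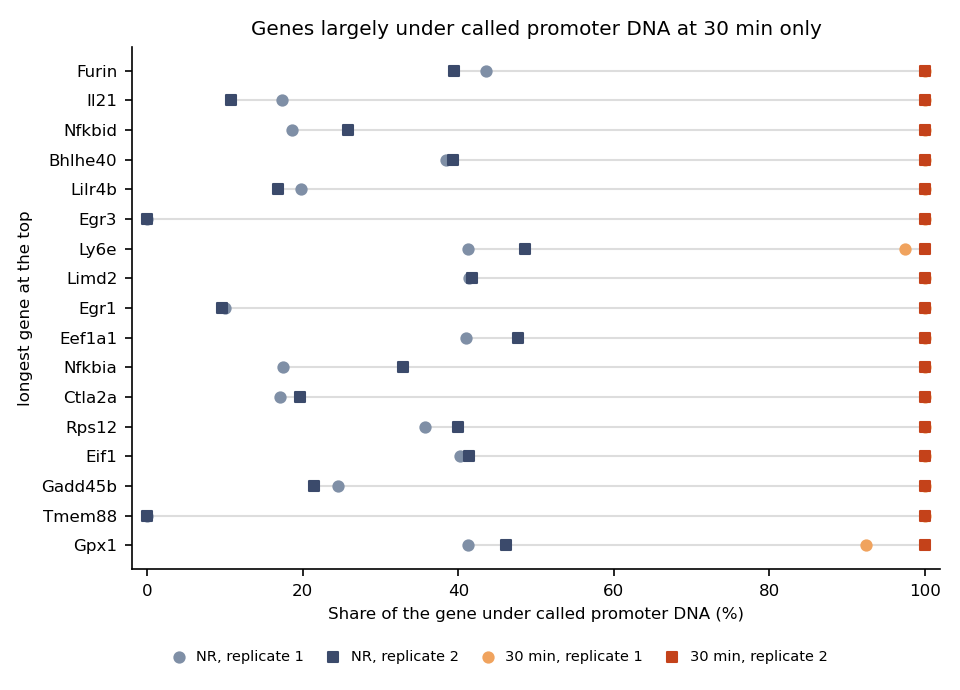
Share of each gene, by its RefSeq span, under called promoter DNA in each library for the 17 genes with at least 90% covered in both 30 min libraries and under 50% in both NR libraries, longest gene at the top. Points are libraries, coloured as NR replicates 1 and 2 (grey, dark blue) and 30 min replicates 1 and 2 (orange, red). Egr1 goes from 10.0% and 9.6% to 100% and 100%, and Gpx1 has the lowest 30 min value, 92.5%.

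Promoter peaks that appeared or vanished were counted next. A promoter peak was assigned to 39 genes at 30 min, in both replicates, that had none in NR cells (0.384% of 10149), and to 38 genes in the reverse pattern (0.374%). The near balance of the 2 counts did not hold by position, where 25 of the 39 gained genes had no promoter peak over the gene or within 1 kb of it in NR cells, while only 2 of the 36 lost genes with a RefSeq span were without one at 30 min. Gained genes of the T cell lists were Egr2, Egr3, Fosb, Ccl3, Ccl4 and the TNF family ligand gene Tnfsf8, and all 6 were gained by position. Of the lists added after results were seen, Taf1d, Zfp148 and Zfp740 were gained, none of them by position. Tnfsf8, which encodes the CD30 ligand, had 250 and 1932 bp after 30 min. Named after their values were seen, Tnfrsf13b, a receptor gene of the TNF family, had 2359 and 3545 bp, Pou2af1, a coactivator of octamer factors, 335 and 838 bp, and Bcl2a1a 243 and 328 bp. The gained peaks were thus narrow in most genes, with a median of 435 bp for the shorter library, and 10 of the 39 passed the length test. Among lost genes were Nfkbid and the ribosomal protein genes Rpl12, Rpl23a, Rpl27a, Rps12 and Rps16. Over the start of each of these a promoter peak was called in both 30 min libraries, and it was assigned to a neighbour, a small nucleolar RNA gene within Rpl12, Rpl27a and Rps12 for example. Leaving out NR replicate 1 gave 48 gained and 109 lost genes, NR replicate 2 gave 354 and 121, 30 min replicate 1 gave 474 and 118, and 30 min replicate 2 gave 135 and 663.

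The last measure was the set of summits outside the promoter table, those at the highest point of no listed promoter peak. They numbered 10528 and 7244 in the NR libraries and 6256 and 12619 at 30 min, and joined within 500 bp they gave 21439 sites. Of these, 512 (2.39%) were gained, found at 30 min in both replicates and in NR cells in none, and 320 (1.49%) were lost. A further 2532 were in all 4 libraries. Of the gained sites 250 lay in a gene, 64 within 5 kb past a gene end and 198 elsewhere, and of the lost sites 176, 41 and 103. Only 1 gained site lay under an NR promoter peak, whereas 158 lost sites (49.4%) lay under a 30 min promoter peak. Of the 511 gained sites under no NR promoter peak, 407 had no NR summit of any kind within 2 kb. The same held, for 30 min summits, for 26 of the 162 lost sites under no 30 min promoter peak. Some lost sites under a 30 min promoter peak also lay more than 2 kb from a 30 min summit and are not in the 26.

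**Figure D5:**
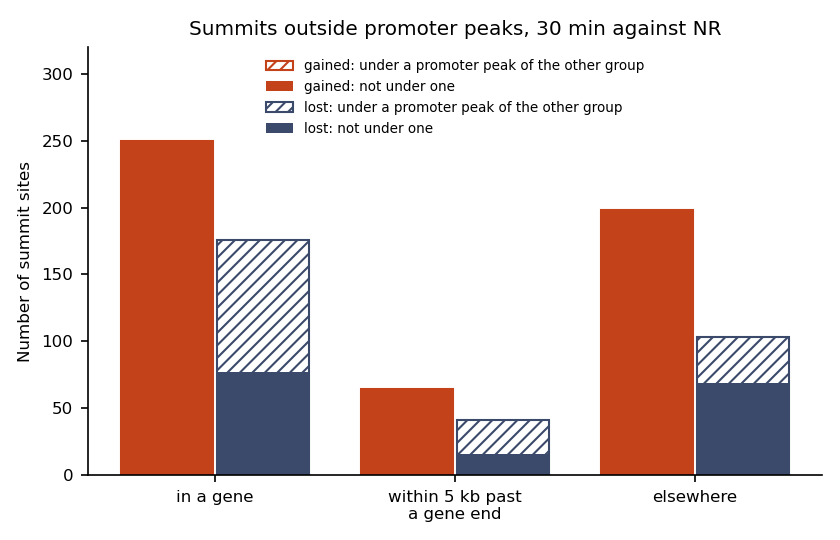
Number of summit sites outside promoter peaks that were gained (red) or lost (blue) at 30 min, by place: in a gene, within 5 kb past a gene end, or elsewhere. Hatched parts are sites under a promoter peak of the other group. Gained sites number 250, 64 and 198 and lost sites 176, 41 and 103, and 158 of the 320 lost sites are hatched.

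The 249 gained sites inside genes that lay under no NR promoter peak fell in 227 genes. Vmp1, which encodes a membrane protein of autophagy, had 3 of them, at 65005, 87730 and 94786 bp after its start, and 17 further genes had 2, as did 3 genes with model names. Abtb2, Babam2, Bcl2, Cd163l1, Cobll1, Fermt3 and Hdac4 stood first among those in alphabetical order. In Bcl2, the founding survival gene of its family, they lay 97226 and 146699 bp after the start, and 2 lost sites of the same gene lay under a 30 min promoter peak. In Fermt3, an integrin activator of blood cells, they lay 4487 and 10607 bp after it. Genes of the lists that gained a site included Icam1 (6075 and 10204 bp after the start), the adhesion ligand that NF-kB induces, Tnfrsf1b (3815 and 6010 bp), the second TNF receptor, and Mxd1 (4537 and 7066 bp), which dimerises with Max. Single sites were gained in Rel at 16351 bp, in Nfatc2 at 21129 bp, in Vav1 at 11687 bp, in the inhibitory receptor gene Havcr2 at 7085 bp and in the hexokinase gene Hk2 at 33840 bp. Nr4a1, Tnfsf8, Spred1, Gbp5 and Irf9 also gained 1 each, as did Lef1 and Foxp1 of the quiescence list. Past the gene end a site was gained 437 bp beyond Tnfrsf9, which encodes the costimulatory receptor 4-1BB, and 1526 bp beyond Traf1, its signalling adaptor, and others beyond Nfatc2, Gbp3, Gbp7, Rgs16, Lat, Rpl5 and Rps4x. List genes with a lost site that lay under no 30 min promoter peak were Bach2 with 2 and Cdk6, Fyn, Ikzf1, Prdm1, Runx1 and Slc2a1 with 1 each, and Bach2 also gained 1. These sites carry no test, and they turned on single libraries. Leaving out NR replicate 1 gave 610 gained and 1059 lost sites, NR replicate 2 gave 1119 and 5942, 30 min replicate 1 gave 6788 and 772, and 30 min replicate 2 gave 1788 and 1068.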

How the data were processed

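Polymerase II ChIP-seq of 6 libraries was used, 2 NR, 2 at 30 min and 2 at 2 h, the last only in the shared fit. The other 4 samples of the series were not analysed here. Per the submitters' processing notes, BWA 0.7.13, Picard 1.119 and MACS2 2.1.0 were used, with mm10. The step that gave each promoter peak 1 gene is not given in the sources used. Per the file headers, the deposited values of each peak are a pileup signal, a fold enrichment ratio over local background and a −log10 q value. Fold enrichment was used only as a rank within a library.

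From these files the bp of promoter peak per gene, the reach from the start, the percentile of fold enrichment, the presence of a peak and the summits outside promoters (joined within 500 bp) were computed with Python 3.11.15. Length and reach were compared as log2(bp + 100), centred on the median gene, with limma 3.58.1 in R 4.3.3 over all 6 libraries, with Benjamini-Hochberg adjustment over all genes tested and a threshold of 0.05. The length test left out genes listed in fewer than 2 libraries. The same fits were tested on simulated data. For called length they recovered 69% of 100 genes changed by 1 on the log2 scale and 100% of those changed by 2, among 9908 genes, with 6 false calls. The simulated data gave every gene the same normal spread, the median of the real ones. They held no absent peaks, no difference in depth and no link between same-numbered replicates. The real libraries differ in all of these, so the simulation does not give the rate of false or missed calls here. Deviations of same-numbered replicates from their group means correlated (0.442 for NR and 30 min, 0.269 for NR and 2 h, 0.408 for 30 min and 2 h, over 9908 genes). The replicate numbers come from the titles. By the background pileup replicate 2 was the deeper library in each group (8.94 against 1 in NR, 7.07 against 2.39 at 30 min, 8.43 against 3.76 at 2 h). A pairing of the libraries and a shared difference in depth thus cannot be told apart. The main fit held the group only, and the block on the replicate number was an alternative.

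Genes named were those with the largest changes: 15 up and 10 down for length, 10 each way for rank, 10 up and 5 down for reach and 8 for outside sites, with up to 4 of each list and a set always named. The 15 and 10 for length were taken from genes past the threshold whose groups did not overlap in bp. Genes with model or small RNA names were counted and not named, a few other genes are not reported here, and genes named after their values were seen are marked. The members and gene lists were chosen with earlier results of these data known. Alternatives varied the pseudocount, scaling, filter, peak threshold, list length, assignment, block and libraries, and the 3 chosen after seeing the data were position for rank and reach and leaving out outside sites under promoter peaks.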

Additional observations from a re-analysis of the deposited data

How the results depend on the processing

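Depth is unknown as read numbers, and the 4 libraries differ in depth and called DNA, which limits all counts of peaks; replicates number 2 a group. Called length gave 23 longer genes and 1 shorter. Longer genes were 52 among genes with a peak in all 6 libraries and 13 with only the 4 NR and 30 min libraries, and shorter ones 0 by position, 3 with the 4 libraries and 7 with a pseudocount of 1000 bp. Under the other settings there were 16 to 33 longer genes. Leaving out 1 library gave 4 to 53 longer and 0 to 175 shorter genes. Farther downstream reach gave 38 genes at the start and 13 with the 4 libraries against 23, and leaving out 1 library gave 11 to 64 farther and 1 to 35 nearer. Upstream, the 6 farther genes became 0 by position and 3 with the 4 libraries, and the 2 nearer genes 0 by position and 1 without centring, with the 4 libraries or with the replicate block. Leaving out 1 library gave 3 to 55 farther and 1 to 59 nearer.

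With lists of equal length 97 genes were gained and 66 lost, by position 2 were lost, and leaving out 1 library gave 48 to 474 gained and 109 to 663 lost. Rank gave 860 up and 804 down with a gap of 5 points and 160 and 146 with a gap of 20. With the replicate block it gave 798 and 803, and leaving out 1 library gave 928 to 1324 up and 936 to 1240 down. Outside sites gained were 316 with a stricter threshold (−log10 q of 5), lost sites 209 when joined within 1000 bp and 162 without those under a promoter peak, and leaving out 1 library gave 610 to 6788 gained and 772 to 5942 lost. The direction turned for Shisa5 by position (log2 0.044 for length, 0.34 for reach) and for Hmox2 reach (-0.21). The block changed no call of a named gene beyond those given above. The cause of these shifts was not tested.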
